A study of Mus musculus with 6 samples.

Results

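The ErbB receptors and neuregulins are 4 receptor tyrosine kinases, Egfr, Erbb2, Erbb3 and Erbb4, and 3 of the ligands that bind them, Nrg1, Nrg2 and Nrg3. They were taken as every row of the deposited table whose RefSeq transcript belongs to 1 of these 7 mouse genes, which gave 10 of 32025 rows, and 2 of the 10, both of Nrg3, hold identical values and were counted once. The members were chosen by gene name, with their measured log2 levels and their differences between miR-128 and miR-Control already known, so those values below are a description and carry no test of their own.

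The study used neural stem cells from CD-1 albino mouse embryos at E14.5, grown as neurospheres, that is as free-floating balls of proliferating progenitors. By nucleofection, an electrical form of transfection, the cells received either a synthetic copy (mimic) of miR-128, a microRNA, or the control RNA miR-Control, and total RNA was taken 72 h later. Each group had 3 biological replicates, all of 1 strain and stage, and each RNA was put on its own exon array. The comparison asks which genes and transcripts differ when miR-128 is brought into cells that, according to the study's design, do not normally make it. The groups therefore show a synthetic mimic against a control RNA in cells that had all been nucleofected, and the level of miR-128 reached was not analysed here.

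A microRNA guides a silencing complex to transcripts that pair with its seed, and such transcripts tend to fall. The mature strand of miR-128 is shown because it is what set the groups apart, with its seed, bases 2 to 8, in capitals. RefSeq (GRCm38.p6) places the same 21-base sequence at 2 loci, at chr1:128202404-128202424 on the plus strand inside R3hdm1 and at chr9:112118644-112118664 on the minus strand inside Arpp21. Among 1679 mature mouse microRNA names in the table, miR-128-3p was the only 1 with this seed.
miR-128-3p: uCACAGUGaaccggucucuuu

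ErbB receptors sit in the cell membrane and signal as pairs. A ligand of the EGF family outside the cell brings 2 receptors together, their kinase domains phosphorylate the tails, and adaptor proteins recruited there start the RAS and ERK relay and the PI3K and AKT relay. Egfr binds EGF-like ligands, Erbb3 and Erbb4 bind neuregulins, Erbb2 has no known ligand of its own and works as the partner, and Erbb3 has little kinase activity of its own. In the developing forebrain EGF receptor signalling is tied to proliferating progenitors and the glial lineage, while Nrg1 and Erbb4 are known from radial glia and migrating interneurons.

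Erbb4 was about 2 times as high with miR-128 as with miR-Control, and it stood apart from the other 6 genes, which differed by no more than 1.16-fold. Its log2 values were 7.89, 8.29 and 8.40 on the control arrays of replicates 1 to 3, and 9.39, 9.05 and 9.16 on the miR-128 arrays of replicates 1 to 3. All 3 miR-128 arrays were above all 3 controls, and the lowest of them exceeded the highest control by 0.66, more than the range of 0.51 among the controls. The group levels were 8.19 ± 0.27 and 9.20 ± 0.17 (SD, n = 3), a log2 difference of 1.01 (SE 0.16, 95% interval 0.66 to 1.36), or 2.01-fold with an interval of 1.58 to 2.57. In bulk RNA, more cells that express Erbb4 and more Erbb4 RNA per cell cannot be told apart.

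Among all 32025 rows, 19 had a larger absolute difference than Erbb4 and 9 had a larger rise. A log2 difference of at least 1 in either direction was found in 24 rows, 0.0749% of the table, and 10 of these were higher with miR-128. The whole-table test, limma with Benjamini-Hochberg adjustment over all rows, called 0 rows at an adjusted p of 0.05 (0.0% of rows), so neither Erbb4 nor any other member row passed, while 2291 rows, or 7.15%, had an unadjusted p under 0.05. Without limma's moderation the same model also called 0 rows, with 2037 at an unadjusted p under 0.05.

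**Figure D1:**
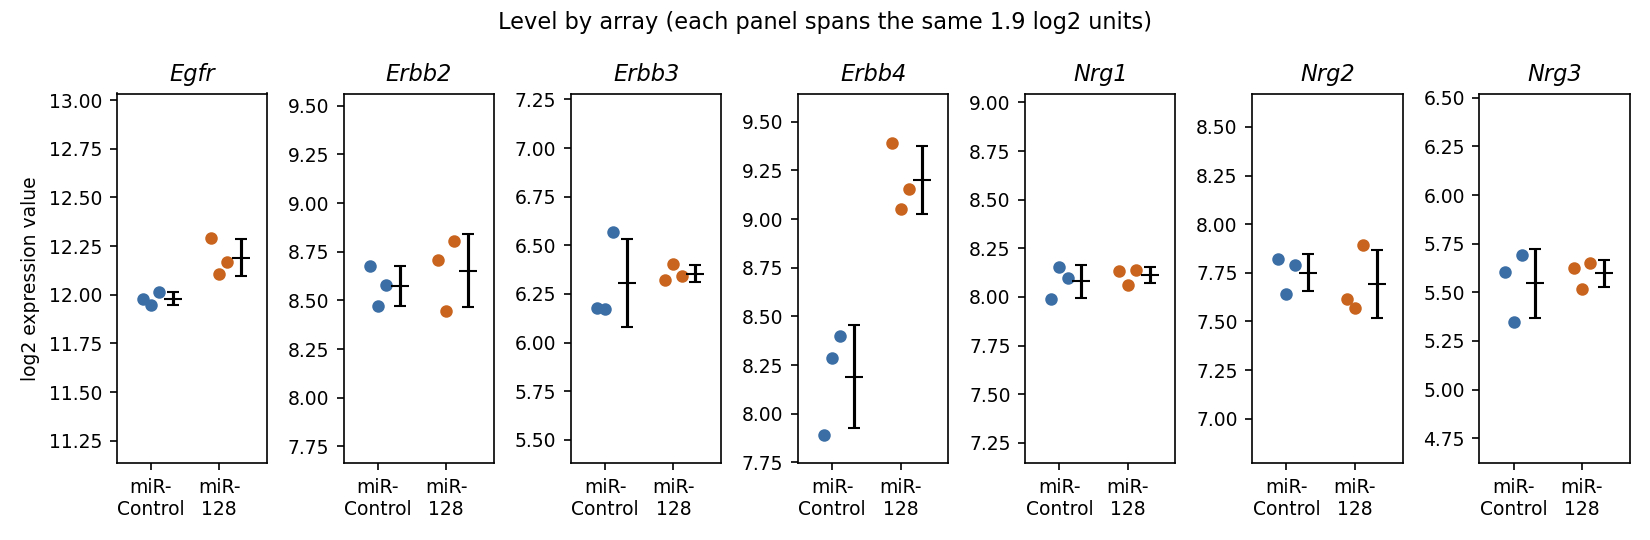
Log2 expression value (y axis) of each gene on each array, with miR-Control in blue and miR-128 in orange; the horizontal tick and bar are the mean and SD of 3 arrays, and a gene with several rows is shown by its row of highest mean. Every panel spans the same height, so the step in Erbb4 from 8.19 to 9.20 can be set against the small step in Egfr and the overlapping groups of the other 5 genes.

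Egfr, the receptor for EGF, was slightly higher with miR-128 in both of its rows. The row NM_207655, which RefSeq lists for the full-length receptor, had 11.98, 11.95 and 12.01 on the control arrays, against 12.29, 12.11 and 12.17 on the miR-128 arrays. The groups did not overlap, with a gap of 0.09 between the highest control and the lowest miR-128 array. The levels were 11.98 ± 0.03 and 12.19 ± 0.09 (SD, n = 3), a log2 difference of 0.21 (SE 0.10, 95% interval -0.02 to 0.44), or 1.16-fold. The interval runs from 0.987-fold to 1.36-fold.

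The other Egfr row, NM_007912, belongs to a shorter transcript that encodes a receptor truncated before its kinase domain. It had 11.49, 11.40 and 11.46 on the control arrays, against 11.69, 11.55 and 11.55 on the miR-128 arrays, a log2 difference of 0.14 (95% interval -0.08 to 0.37). These groups did not overlap either, and the gap was 0.05. The full-length row minus the short row was 0.53 ± 0.04 on the control arrays and 0.60 ± 0.03 on the miR-128 arrays (SD, n = 3), so the rows moved together to within 0.07, and transcripts of a gene can share probes.

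Erbb2, the partner receptor without a ligand of its own, had 8.68, 8.47 and 8.58 on the control arrays, against 8.71, 8.44 and 8.81 on the miR-128 arrays. The miR-128 arrays held both the lowest and the highest of the 6 values. The log2 difference was 0.08 (95% interval -0.21 to 0.36), which bounds a change at 1.28-fold up and 0.87-fold down.

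Erbb3, the neuregulin receptor with little kinase activity, had 6.18, 6.17 and 6.57 on the control arrays, against 6.32, 6.40 and 6.34 on the miR-128 arrays. The miR-128 arrays lay close together, inside a control range of 0.39 that miR-Control replicate 3 set. The log2 difference of 0.05 had a 95% interval of -0.25 to 0.34, or 0.84-fold to 1.27-fold.

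Of the ligands, Nrg1, the founding neuregulin, had 7.99, 8.15 and 8.10 on the control arrays, against 8.13, 8.06 and 8.14 on the miR-128 arrays. All 3 miR-128 arrays lay within the range of the controls. The log2 difference was 0.03 (95% interval -0.20 to 0.26), the smallest of the 7 genes in absolute size. Its bounds are 0.87-fold and 1.20-fold.

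Nrg2, a second neuregulin with the same kind of EGF-like domain, had 7.82, 7.64 and 7.79 on the control arrays, against 7.62, 7.57 and 7.89 on the miR-128 arrays. It was the only 1 of the 7 genes with a lower mean, by -0.06 (95% interval -0.33 to 0.22), and miR-128 replicate 3 was the highest of the 6 arrays.

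Nrg3, a neuregulin that binds Erbb4, had 3 rows. In NM_001190188 the values were 5.60, 5.35 and 5.69 on the control arrays, against 5.62, 5.52 and 5.65 on the miR-128 arrays. The miR-128 arrays lay within the control range, and the log2 difference was 0.05 (95% interval -0.22 to 0.32). The identical rows NM_008734 and NM_001190187 also gave 0.05 (95% interval -0.21 to 0.32).

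**Figure D2:**
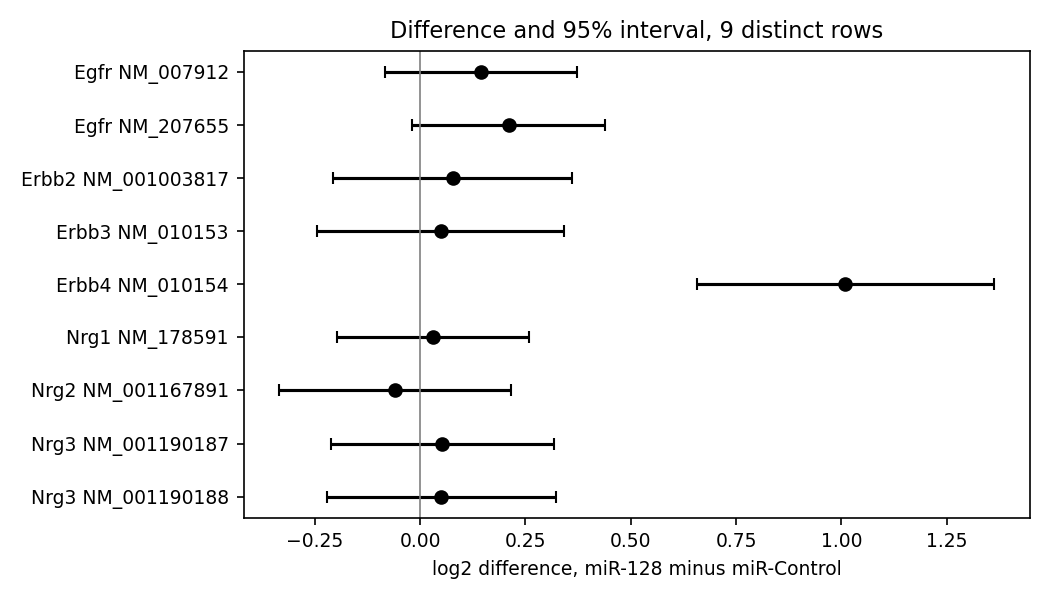
Log2 difference, miR-128 minus miR-Control (x axis), of the 9 distinct rows, named by gene and RefSeq transcript; bars are 95% intervals from the fit over all rows. The interval of Erbb4, 0.66 to 1.36, lies above the upper bounds of all other rows, the highest of which is 0.44 for Egfr.

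Over the family, 6 of 7 genes had a higher mean with miR-128, with a median log2 difference of 0.05, where 56.8% of all rows were higher and the median of all rows was 0.02. The count was 5 of 7 after quantile normalization. Groups did not overlap, with miR-128 higher, in 3 of 9 distinct rows, those of Erbb4 and Egfr, where 6.98% of all rows had such a pattern and 11.9% did not overlap in either direction. Both counts are given for description, since the differences were known when the family was chosen.

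The table has no detection call, so the member rows were set beside 1026 rows of olfactory receptor genes, whose transcripts are not expected in neurospheres. The olfactory rows had a median control value of 4.68, and 95% of them lay under 6.98. Egfr, at 11.98, was above 100% of them, Erbb2 above 99.8%, Erbb4 above 99.6%, Nrg1 above 99.4% and Nrg2 above 98.8%. Erbb3 was above 86.1% and Nrg3 above 69.0%, so both lay under the 95th percentile, and the table does not show whether these rows carry signal of their transcripts. Probes differ in how strongly they bind, so these values do not rank the genes by transcript number.

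**Figure D3:**
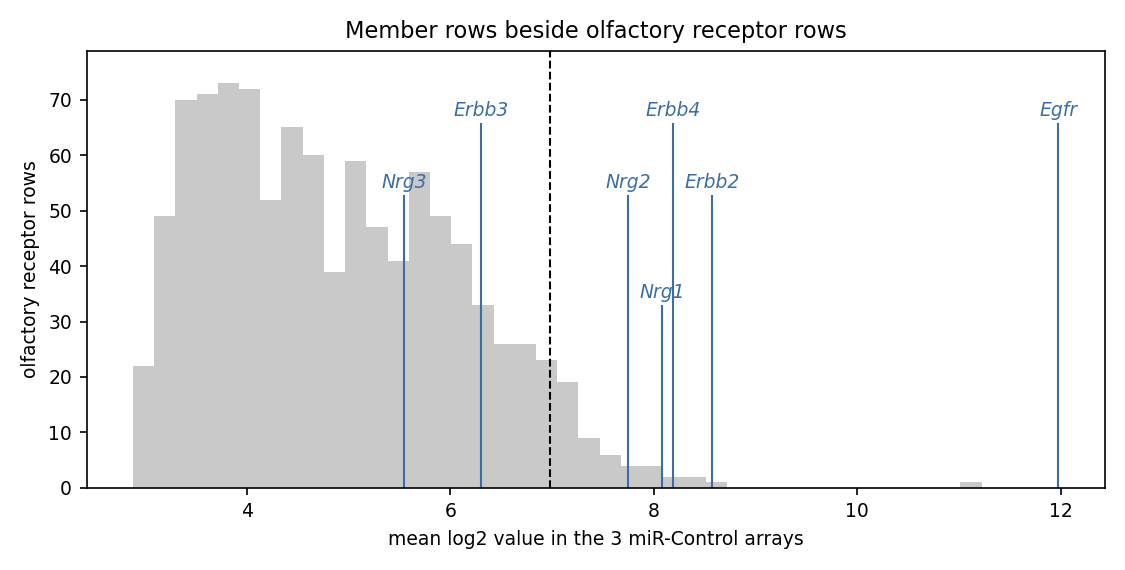
Number of olfactory receptor rows (y axis, grey) by mean log2 value in the 3 miR-Control arrays (x axis), with the 7 member genes as blue lines and the 95th percentile of the olfactory rows, 6.98, as a dashed line. Nrg3 and Erbb3 lie left of the dashed line, and Egfr lies to the right of every olfactory row.

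The stretch upstream of a gene is where its transcription is switched on, and it is shown for Erbb4 and Egfr, the members whose groups did not overlap and which were both higher with miR-128. Each holds the 250 bases before a RefSeq start (GRCm38.p6), with CG dinucleotides, the sites of DNA methylation, in capitals. The Erbb4 window is chr1:69108060-69108309 on the minus strand and the Egfr window chr11:16751953-16752202 on the plus strand.
Erbb4: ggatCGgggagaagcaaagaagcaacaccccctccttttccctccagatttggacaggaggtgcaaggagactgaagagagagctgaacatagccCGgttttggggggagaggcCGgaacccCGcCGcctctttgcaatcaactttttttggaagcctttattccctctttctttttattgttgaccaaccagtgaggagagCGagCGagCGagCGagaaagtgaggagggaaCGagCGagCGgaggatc
Egfr: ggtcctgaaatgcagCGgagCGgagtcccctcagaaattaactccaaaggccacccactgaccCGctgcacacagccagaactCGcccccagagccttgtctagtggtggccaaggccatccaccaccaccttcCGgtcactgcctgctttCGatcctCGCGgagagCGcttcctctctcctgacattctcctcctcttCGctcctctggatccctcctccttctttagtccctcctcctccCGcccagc

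The Erbb4 window held 12 CG dinucleotides and the Egfr window 11, against a median of 6 over 32851 windows of the same length. Of all windows, 66.5% held fewer than that of Erbb4 and 64.4% fewer than that of Egfr. The windows of Erbb2 and Nrg3, whose groups overlapped, held more, 16 and 27. GGGCGG, the GC box, searched on both strands, occurred 1 time in the Egfr window and 0 times in that of Erbb4, and 32.7% of all windows held it. TATAAA, also on both strands, was in neither and in 12.4% of all windows. A match describes letters in the window and is not evidence of a bound site.

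The genes that act with the receptors were described in 6 lists with 95 measured genes. In the whole-table limma fit 0 of the 95 passed in either direction, and the lowest adjusted p was 0.472. Of them 11, or 11.6%, had an unadjusted p under 0.05, against 7.15% of all rows. The sets are unlike, here and in the other shares below: all rows include low-signal rows, and each listed gene is given by its highest row. In a limma fit of only the 16012 rows above the median level, 1487 had an unadjusted p under 0.05. Of the 95 genes 63, or 66.3%, were higher and 32 lower with miR-128, against 56.8% of all rows higher, with 60 higher after quantile normalization and 56 higher with arrays centred on their medians. Their median log2 difference was 0.05, and groups did not overlap in 17.9% of them against 11.9% of all rows. The largest absolute difference among them was 0.43, against 1.01 in Erbb4.

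The other ligands of the receptors were higher in 7 of 8 genes, where 56.8% of all rows were higher, and 0 of 8 passed. The count was 6 after quantile normalization and also 6 with arrays centred on their medians. Egf itself, which drives neurosphere growth in culture, was at 6.52 ± 0.06 on the control arrays and 6.60 ± 0.10 on the miR-128 arrays (SD, n = 3), a log2 difference of 0.08. Tgfa, an Egfr ligand, differed by 0.13. Hbegf, which binds Egfr and Erbb4, differed by -0.01 (0.02 after quantile normalization). The largest difference was that of Nrg4, a ligand of Erbb4, at 0.21 (SE 0.11, adjusted p = 0.775 in limma), and its groups did not overlap. Egf, Ereg, Epgn and Nrg4 had control values under the 95th percentile of the olfactory rows, so 4 of the 8 ligands had no signal above that level.

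Proteases that free the ligands from the membrane, and the secretase subunits, were higher in 5 and lower in 3 of 8 measured genes, and 0 passed. With arrays centred on their medians 4 were higher. Adam17, the main sheddase of EGF ligands, differed by -0.12 (SE 0.14). Psen2, a catalytic subunit of gamma-secretase, which also cleaves Erbb4, had the highest value at 0.25 (SE 0.13), and Bace2 the lowest value at -0.21 (SE 0.10).

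Genes that restrain or degrade the receptors were higher in 11 of 14, and 0 passed. Erbin, a scaffold that binds Erbb2, was at 10.35 ± 0.14 on the control arrays and 10.60 ± 0.15 on the miR-128 arrays (SD, n = 3), a log2 difference of 0.25 (SE 0.12, adjusted p = 0.733 in limma) with groups that did not overlap. Lrig1, a membrane protein that promotes receptor turnover, differed by 0.23 (SE 0.17). Errfi1, a feedback inhibitor of the kinase domain, differed by -0.01, and Ptpn1, a phosphatase, by -0.15.

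In the adaptors and the RAS, ERK and PI3K relays 22 of 40 genes were higher and 18 lower, with a median of 0.02, and 0 passed; with arrays centred on their medians 18 were higher. Gab1, a docking protein downstream of Egfr, had the largest value at 0.43 (SE 0.15, adjusted p = 0.603 in limma) with groups that did not overlap. Pik3r2, a regulatory subunit of PI3K, had the lowest value at -0.32 (SE 0.20). Grb2, the adaptor that binds the receptor tails, differed by -0.15, and the ERK kinase Mapk3 by 0.20.

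Genes that respond to ERK were higher in 11 (10 after quantile normalization) and lower in 5 of 16, and 0 passed. Egr1, an early transcription factor, had 11.88 ± 0.16 on the control arrays and 12.30 ± 0.28 on the miR-128 arrays (SD, n = 3), a log2 difference of 0.41, and its groups overlapped. Dusp4, a phosphatase that ends ERK signalling, differed by -0.33 (SE 0.10, adjusted p = 0.524 in limma) with groups that did not overlap. Counting only genes whose groups did not overlap, 4 were lower, Dusp4, Dusp6 (-0.11), Ccnd1 (-0.21) and Ier3 (-0.22), and 1 was higher, Spry2 (0.27). All but Dusp4 are named after their values were seen. Over all rows, 11.9% did not overlap in either direction and 6.98% did so with miR-128 higher. The count is a description and was not tested. Other growth factor receptors were higher in 7 of 9 (6 after quantile normalization), and 0 passed. Their differences ran from -0.10 for Met to 0.32 for Insr, the insulin receptor.

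**Figure D4:**
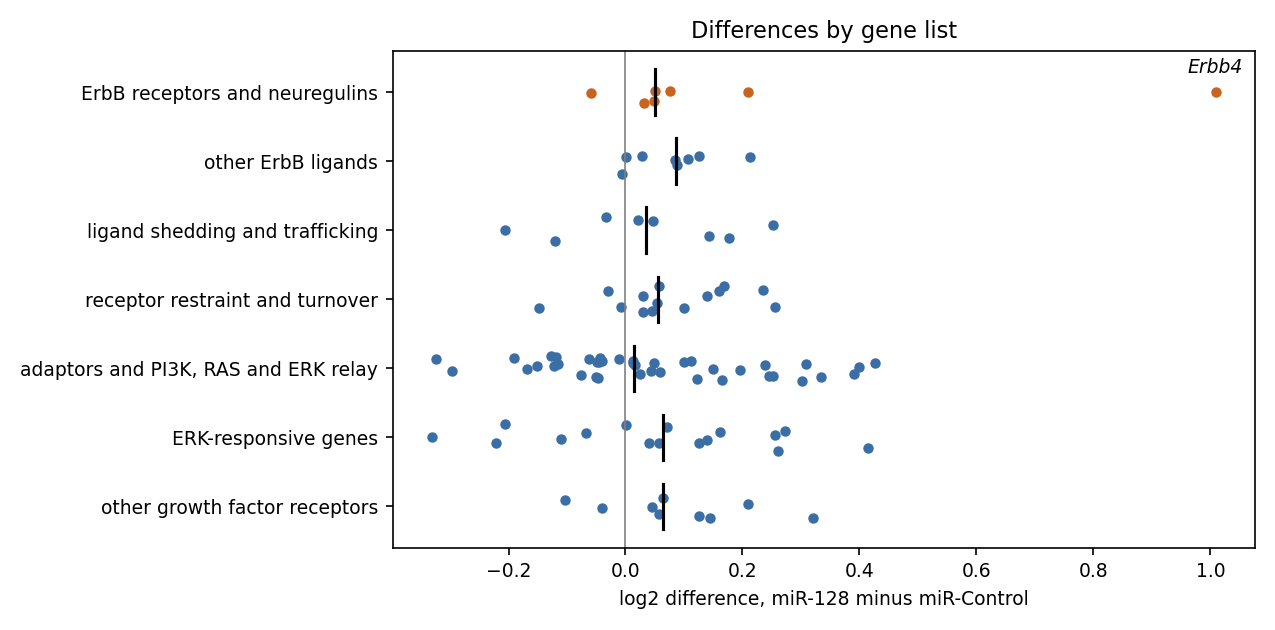
Log2 difference, miR-128 minus miR-Control (x axis), with 1 point per gene and a black line at the median of each list; the 7 member genes are orange and the genes of the 6 lists blue. The points of the lists run from -0.33 to 0.43, and Erbb4 lies alone at 1.01.

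The cells were checked against marker lists. Vim, Sox2, Fabp7 and Slc1a3, markers of neural stem cells and radial glia, had control log2 values of 13.57, 11.94, 12.61 and 12.22, all above 100% of the olfactory rows, while Prom1, at 5.85, lay under their 95th percentile. Microglial markers lay under it in 5 of 6 genes. They were higher with miR-128 in 6 of 6, but in 3 after quantile normalization and in 3 with arrays centred on their medians. The stem cell and radial glia list was divided, with 6 of 11 genes higher with miR-128 (8 after quantile normalization) and 5 lower, and 0 passed. Fabp7 differed by -0.30, with groups that did not overlap. Nes, an intermediate filament gene, differed by -0.30 and Hes5 by 0.33, both with groups that overlapped. Replicate 3 of miR-Control was the array farthest out on the first principal component, at 42.5 against -18.7 to -0.226, and without it the Erbb4 difference was 1.11 and the Egfr difference 0.23.

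Most markers of the oligodendrocyte and astrocyte lists were, like Erbb4, higher with miR-128. Oligodendrocyte lineage markers were higher in 9 of 10 genes (8 after quantile normalization), where 56.8% of all rows were higher. Their mean per array, relative to the control mean, was -0.07 to 0.05 on the control arrays and 0.15 to 0.25 on the miR-128 arrays. Their summed linear signal was 8645 to 9211 in the controls and 9160 to 10940 with miR-128, which overlapped. Pdgfra, Gpr17, Mbp, Mog and Mag were under the 95th percentile of the olfactory rows in the controls. Astrocyte markers were higher in 5 of 6 genes, also after quantile normalization. Their list means were -0.05 to 0.04 in the controls and 0.13 to 0.18 with miR-128. Their summed linear signal was 2071 to 2331 and 2308 to 2465, which overlapped. Gfap and Aqp4 were under that percentile. The astrocyte marker Gja1, a gap junction gene above that percentile, was lower by -0.29, with groups that did not overlap. Slc1a2 (0.47) and S100b (0.32) of the same list were higher, also with groups that did not overlap. The part of these markers in the Erbb4 difference was not tested.

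Neuronal markers were higher in 7 of 10 genes (6 after quantile normalization). Their list means were -0.05 to 0.04 in the controls and -0.00113 to 0.09 with miR-128, which overlapped. Their summed linear signal was 7286 to 7360 in the controls and 7402 to 8109 with miR-128, which did not overlap. Most of that sum is Map2, at a control log2 value of 12.53 against 9.27 for Gad1, the next highest of the list. Map2 itself differed by 0.06, with groups that overlapped, so the sum does not describe the list as a whole. Gad2, Slc17a6, Stmn2 and Syt1 lay under the 95th percentile of the olfactory rows, and Gad1, an enzyme of inhibitory neurons, differed by 0.04. Dcx, whose control value was near that percentile, differed by 0.24, with groups that did not overlap. No gene of the oligodendrocyte, astrocyte and neuron lists passed in the limma fit.

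Over the 6 arrays, the named genes whose values ran closest to those of Erbb4, each taken relative to its own mean, were Slitrk2, Olfr1283 and Kcnd2. Their root mean square distances were 0.208, 0.212 and 0.215 log2 units, among 20262 genes compared, while Erbb4 itself varied by 0.537 about its mean. Kcnd2, a potassium channel, went from 7.86 ± 0.09 to 8.78 ± 0.27 (SD, n = 3), and Slitrk2, a neuronal membrane protein, from 7.99 ± 0.23 to 8.63 ± 0.16. Olfr1283 is an olfactory receptor row at 3.90 ± 0.44 and 4.85 ± 0.08, under the median of its own class in the controls. The genes closest to Egfr were Tmem211, Aff4 and Per3, at distances of 0.0234, 0.026 and 0.0271, with Egfr itself varying by 0.120.

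The Erbb4 difference was recomputed under 11 other settings and lay between 0.86 and 1.21. Adding a term for replicate number, or testing only rows above the median level, cannot change a difference, only its interval. The lowest value was without miR-Control replicate 1, the control with the lowest Erbb4 value, and the highest was with array weights. Egfr lay between 0.16 and 0.25 over 12 settings. Both genes kept a higher value with miR-128 in all of these. Their groups did not overlap, so leaving out an array, weighting arrays or averaging the Egfr rows could not turn the sign. Only quantile normalization and centring arrays on their medians could have done so. Under these 2 settings Erbb4 differed by 1.00 and 0.98, and Egfr by 0.22 and 0.18. Erbb2, Nrg1, Nrg2 and Nrg3, whose groups overlapped, changed sign in 1 setting each, and Erbb3, also overlapping, in 3.

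**Figure D5:**
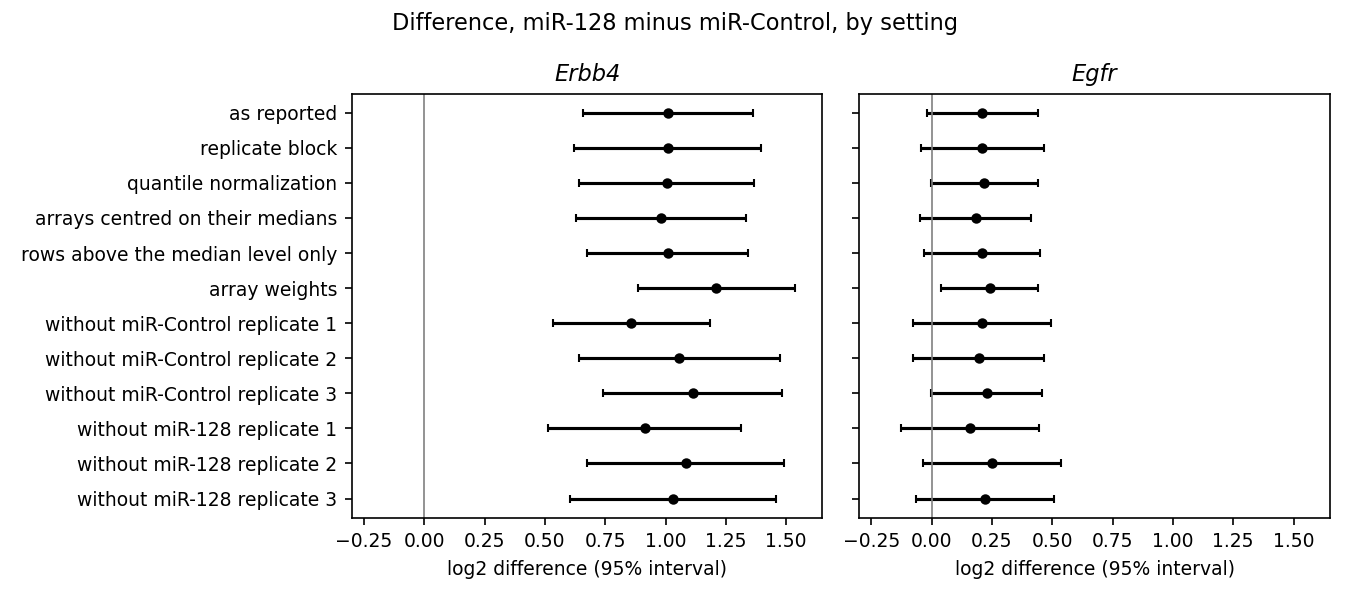
Log2 difference, miR-128 minus miR-Control (x axis), of Erbb4 and Egfr as reported and under other settings (y axis); bars are 95% intervals of each fit. The Erbb4 values run from 0.86 to 1.21 with every interval above 0, and every Egfr interval except that with array weights includes 0.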

How the data were processed

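The authors deposited log2 expression values of 6 exon arrays, for which the submitters' processing notes name RMA and affy without a version. RMA subtracts background and reduces the probes of a group to 1 value per array, which tends to compress fold changes. How probes were grouped, and on which genome build, is not given in the sources used here. Rows are RefSeq transcripts and were named, without version numbers, through RefSeq's GRCm38.p6 gene table; 25343 of 32025 rows received 1 symbol, for 20263 genes.

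Groups and replicate numbers come from the sample titles. limma 3.58.1 in R 4.3.3 was fitted to all rows, unpaired and two-sided, with Benjamini-Hochberg adjustment at 0.05 and no filter on low values. A gene with several rows is given by its row of highest mean. The procedure was tested on simulated data. The members and lists were chosen with earlier results of these data known. The text names all 7 members, the genes of largest difference in each direction of each list, 9 further genes of the pathway (1 of them not reported here), and the 3 genes nearest to Egfr and to Erbb4; marker genes and Ereg and Epgn are named for their signal. A planned description of protein identity between members was not made, since no protein sequences were used here. With 3 arrays a group, array number limits the precision, and the median standard error of a log2 difference was 0.13. Whether the replicates came from separate cultures or animals is not stated beyond the word biological. The p-values weigh a difference against the variation between these samples, and may not extend beyond these preparations.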

Additional observations from a re-analysis of the deposited data

How the results depend on the processing

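The count of 0 rows called over the whole table was also 0 with a replicate block, after quantile normalization, with arrays centred on their medians, with ordinary statistics and without each array in turn (0 to 0). It was 4 among rows above the median level and 24 with limma's array weights; the filter tests fewer rows, 16012, and otherwise the cause was not tested. Erbb4 was among the 24 (adjusted p = 0.0453 in limma) and not among the 4 (adjusted p = 0.0531). Its adjusted p in limma was 0.201 as reported. Under the replicate block, both rescalings and the left-out arrays it ran from 0.238 to 0.827 in limma. Ordinary statistics were not run for single members. The Erbb4 difference was known when the family was chosen, so these adjusted p-values are a description and no test of it. The weights give miR-Control replicate 3 the least influence, 0.279. No gene of the pathway lists passed under any of these settings. The number of the 7 genes with a higher mean, 6 as reported, was 4 to 7 over the settings. Erbb3 and Nrg3 have no value among rows above the median level, since their rows lie under it. Same-numbered arrays of the 2 groups had correlations of their deviations of -0.00279, 0.173 and 0.0515, and differently numbered arrays -0.243 to 0.190. With 3 arrays a group, these values cannot show whether the numbers pair the arrays. Each number occurs 1 time in each group, so the replicate block cannot change a mean difference, and the Erbb4 value of 1.01 under it is no check. The block called 0 rows. Signal over background limits Erbb3 and Nrg3, whose rows lie in the range of olfactory receptor rows.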
